A study of Mus musculus with 8 samples.

Results

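The Myc, Max and Mxd network was followed in mouse small intestine through 7 genes: Myc, Max, Mxd1, Mxd3, Mxd4, Mxi1 and Mnt. All probe sets annotated to one of these genes alone were taken, which gave 14 of the 22690 probe sets on the array. A mean signal of at least 38.8 over the arrays, the pooled 40th percentile, was required for testing, and 10 of the 14 reached it. Each of the 7 genes kept at least 1 tested probe set: 1 each for Myc, Max, Mxd1, Mxd3 and Mnt, 2 for Mxi1 and 3 for Mxd4. The genes were chosen with their differences from vehicle in view, so every comparison that uses the vehicle arrays is given below as a description with no test.

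Max is the shared partner of the network: basic helix-loop-helix leucine zipper proteins of the family bind DNA as pairs with Max. Myc with Max binds the E-box CACGTG and recruits co-activators, and its targets include genes of ribosome production, nucleotide synthesis and cell growth. The Mxd proteins, Mxi1 and Mnt bind the same E-box with Max and recruit Sin3 and histone deacetylases, which repress such genes. In the intestine Myc is a target of Wnt signalling in the proliferating cells of the crypts, while Mxd1 is known from cells that leave the cycle and differentiate.

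The mice were 6-week-old C57/Black6 females that received an intraperitoneal injection each day for 5 days. The vehicle group received DMSO, the dexamethasone group this synthetic glucocorticoid at 15 mg/kg, the DBZ group this gamma-secretase inhibitor, which blocks Notch receptor cleavage, at 10 umol/kg, and the combination group both. The labels give 2 samples in each group and name the tissue only as unprocessed small intestine, with no segment and no cell type, and do not say more about how the replicates were made, so p-values measure the spread between these arrays. The design text gives 2 mice per group.

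The pair of DBZ columns held the same value for 22684 probe sets and another for only 6, and was counted as 1 array, which left 7 distinct arrays. The DBZ array has no replicate, and wherever a standard error or a p for it is given, its spread is taken to be that of the other 3 groups. Its 3'/5' ratios, a measure of RNA integrity, were 1.80 for Gapdh and 2.17 for actin, against 0.905 to 1.22 and 1.22 to 1.79 on the other 6 arrays. All 10 epithelial markers were on the array, and their summed scaled signal lay between 52293 and 75824 in all 7. The 8 proximal small intestine markers summed to 12368 and 15417 in the vehicle arrays and to 682 to 1794 in the 5 treated arrays. The 6 ileal markers summed to 256 and 185 in the vehicle arrays and to 4412 to 19247 in the treated ones, and the bile acid binding protein Fabp6 was at 0.640 and 1.22 in vehicle. Vehicle and treated arrays therefore differ in markers of position along the gut, and whatever sets these apart cannot be told apart from treatment in any comparison with vehicle.

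The promoters of the members are shown because the network's proteins bind CACGTG and 3 of the members carry that E-box in their own promoter. RefSeq promoter sequences, reaching from 250 bases before to 50 bases after the annotated start, were found for 6 of the 7 members, 8 promoters in all, and Myc was not among them. CACGTG, which reads the same on both strands, was found in the promoters of Max, Mxd4 and Mnt. Counted from the annotated start, it begins at position −3 in Max, −219 in Mxd4 and −123 in Mnt. Of all 32851 RefSeq promoters of this length, 7.15% hold it. Mxd1 is shown beside them as the member called higher in a comparison among treated groups, and its window holds no CACGTG. The sequences run 5′ to 3′ on the gene's strand with the E-box in capitals, in build GRCm38.p6. Max lies on the minus strand at chr12:76962199-76962498, Mxd4 on the minus strand at chr5:34187661-34187960, Mnt on the plus strand at chr11:74830674-74830973 and Mxd1 on the minus strand at chr6:86669110-86669409.
Max: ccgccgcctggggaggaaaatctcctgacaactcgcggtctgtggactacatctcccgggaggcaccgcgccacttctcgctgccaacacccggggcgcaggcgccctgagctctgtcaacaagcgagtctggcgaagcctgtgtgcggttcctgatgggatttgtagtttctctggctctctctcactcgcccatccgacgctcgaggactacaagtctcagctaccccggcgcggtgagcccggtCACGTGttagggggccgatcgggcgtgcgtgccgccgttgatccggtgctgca
Mxd4: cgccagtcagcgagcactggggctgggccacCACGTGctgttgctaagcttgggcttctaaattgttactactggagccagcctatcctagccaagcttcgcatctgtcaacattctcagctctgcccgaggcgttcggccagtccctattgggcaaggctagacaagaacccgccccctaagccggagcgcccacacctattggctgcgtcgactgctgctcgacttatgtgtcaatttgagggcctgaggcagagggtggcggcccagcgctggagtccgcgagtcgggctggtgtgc
Mnt: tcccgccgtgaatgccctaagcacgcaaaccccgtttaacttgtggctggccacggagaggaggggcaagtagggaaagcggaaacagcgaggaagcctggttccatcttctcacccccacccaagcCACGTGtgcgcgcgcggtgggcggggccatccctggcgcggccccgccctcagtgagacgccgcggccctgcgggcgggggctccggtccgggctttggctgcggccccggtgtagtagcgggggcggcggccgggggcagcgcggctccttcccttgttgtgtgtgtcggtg
Mxd1: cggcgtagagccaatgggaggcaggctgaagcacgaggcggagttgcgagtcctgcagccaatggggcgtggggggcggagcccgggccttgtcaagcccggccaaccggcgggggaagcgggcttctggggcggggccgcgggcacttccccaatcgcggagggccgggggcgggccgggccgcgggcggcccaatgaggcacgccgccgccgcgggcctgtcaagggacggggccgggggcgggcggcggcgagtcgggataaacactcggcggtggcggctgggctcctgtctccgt
The letters TGGGAA, bound by RBPJ, the DNA-binding partner of cleaved Notch, were searched on both strands and occurred in promoters of Mxd3 and Mxi1, against 25.6% of all promoters. ACANNNTGT, a loose form of the glucocorticoid receptor element searched in the same way, occurred in 0 of the 8, against 6.85% of all promoters. These matches describe the sequence windows and say nothing about binding.

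Max differed most among the members. Its single probe set, 1423501_at, gave a scaled signal of 779 and 1126 in the vehicle arrays, 81.2 and 198 in the dexamethasone arrays, 128 in the DBZ array and 509 and 447 in the combination arrays. Both single-drug groups lay far below vehicle, and the combination lay between them and vehicle, with no overlap on either side. The group means were 953 ± 245 (SD, n = 2) in vehicle, 478 ± 44.1 (SD, n = 2) in the combination and 140 ± 82.9 (SD, n = 2) under dexamethasone. The order of the levels was vehicle, combination, then dexamethasone and DBZ together, and the last pair was not separated, because the DBZ value lay between the dexamethasone arrays.

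On the log2(signal + 12.3) scale used for all differences, where a low signal understates a change, Max was −2.76 ± 0.34 (SE) from vehicle under dexamethasone and −2.75 ± 0.41 under DBZ, 6.77-fold and 6.75-fold lower. The combination was −0.96 ± 0.34 from vehicle. Max was the only member probe set called lower at an adjusted p under 0.05 under either single drug, where 4.82% and 4.60% of all tested probe sets were called lower. No reading is made of these counts, because their values were known when the members were chosen.

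The comparisons among treated groups subtract no vehicle array, but the vehicle pair enters the spread behind their standard errors and p. Treated arrays also entered the differences from vehicle that were in view when the members were chosen. So these comparisons are not independent of that choice, and their p and intervals do not allow for it. Combination minus dexamethasone, the difference made by DBZ in mice that also received dexamethasone, was 1.80 ± 0.34 for Max (95% interval 1.05 to 2.55), a 3.49-fold higher level. Only 0.330% of the tested probe sets had a difference this large in that comparison, yet the adjusted p was 0.130, and Max did not pass the test. Combination minus DBZ, the difference made by dexamethasone in mice that also received DBZ, was 1.80 ± 0.41 (0.88 to 2.72) with an adjusted p of 0.125, and 0.315% of probe sets differed as much. All combination arrays were above all single-drug arrays. DBZ minus dexamethasone was 0.00 ± 0.41 for Max (−0.92 to 0.93, adjusted p = 0.997), an interval that leaves room for a difference of close to 2-fold either way. Dexamethasone replicate 2, the higher of that pair, decides part of this: without it combination minus dexamethasone was 2.39 with an adjusted p of 0.00289, and without dexamethasone replicate 1 it was 1.22 and did not pass. Without replicate 2 combination minus DBZ kept its value of 1.80 with an adjusted p of 0.0482, and without dexamethasone replicate 1 its adjusted p was 0.0435. Over the 14 alternatives the adjusted p ranged from 0.00289 to 0.682 for the former and from 0.0435 to 0.382 for the latter.

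The interaction, the DBZ difference in mice with dexamethasone minus that in mice without it, was 4.56 ± 0.53 for Max. Each drug alone stood lower than vehicle, and each drug added to the other stood higher, in every array. It was the only member probe set called in the interaction, against 2.07% of probe sets called higher, and 0.103% had one this large. Nothing is read from this call. The interaction shares the vehicle arrays with the differences that chose the members and is a description for that reason.

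**Figure D1:**
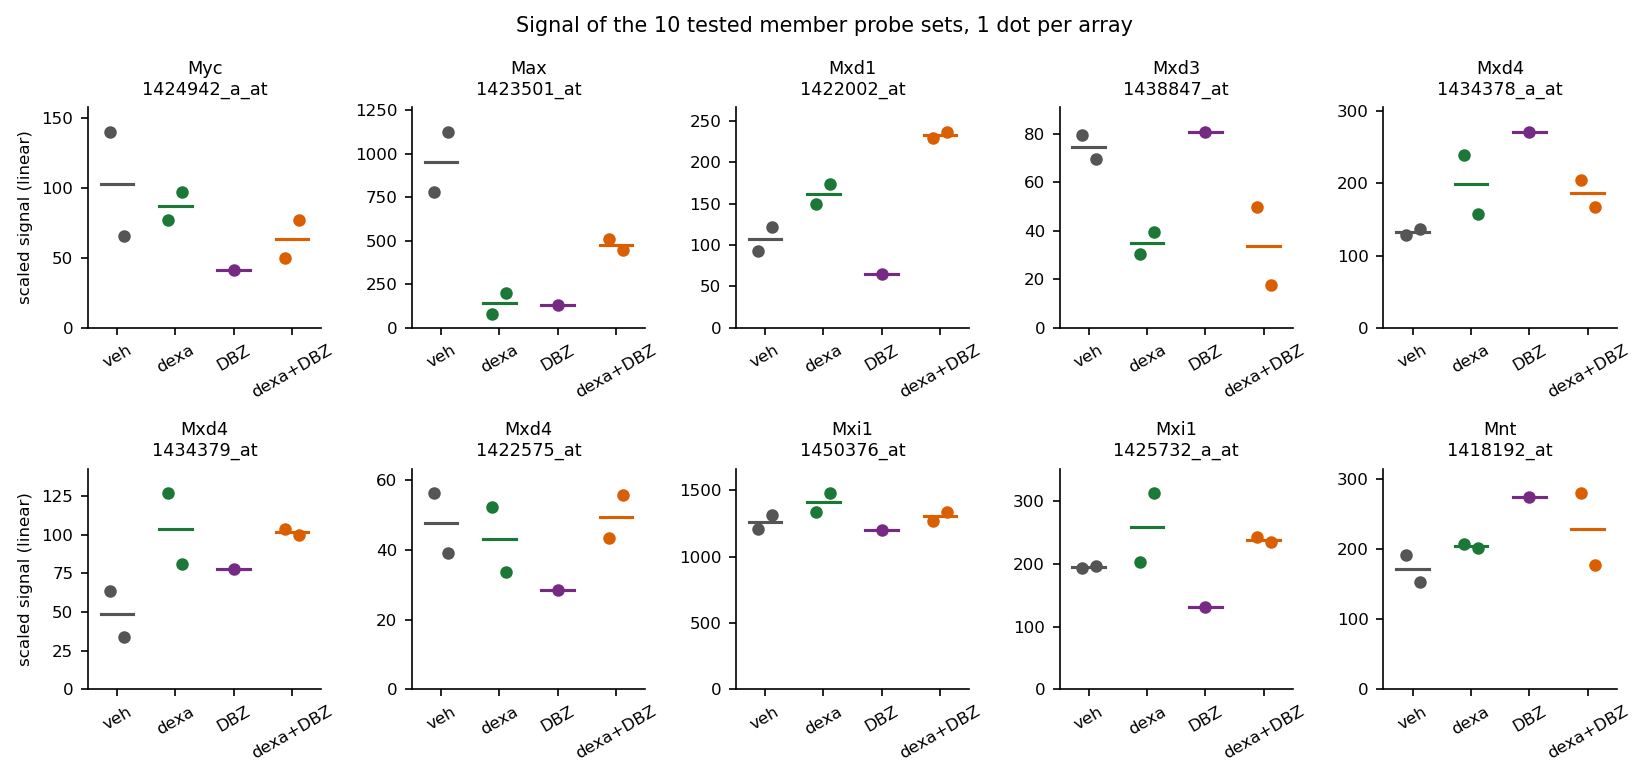
Scaled signal on a linear axis that starts at 0 for the 10 tested member probe sets, with 1 dot per array in the vehicle, dexamethasone, DBZ and combination groups (veh, dexa, DBZ and dexa+DBZ) and a bar at each group's mean; the DBZ bar is its 1 array. Max runs from 779 and 1126 in vehicle to 81.2 to 198 under either single drug and back to 447 and 509 in the combination, Mxd1 is highest in the combination, and Mxi1 1450376_at stays between 1202 and 1478.

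Some markers of position along the gut moved with Max, and others did not. The ileal sum was 7622 and 15869 under dexamethasone, 19247 under DBZ and 4412 and 5842 in the combination, so it was lowest, among treated arrays, in the group where Max was highest. The proximal sum was 1794 and 1076 in the combination, 1211 and 682 under dexamethasone and 1214 under DBZ, where Slc40a1 alone made up 519 of the sum in dexamethasone replicate 1. Among single proximal markers, the transcription factor Gata4 had 660 and 469 in vehicle, 222 and 220 under dexamethasone, 191 under DBZ and 353 and 338 in the combination, with the combination, as for Max, between vehicle and the single drugs. Adh4 and Akp3 also lay so, by small margins. For Slc46a1 (837 and 409 against 277 and 246) and Cyp2c29 (294 and 81.2 against 15.1 and 8.22) both combination arrays stood above both dexamethasone arrays. The DBZ array, at 521 and 237, lay between their combination arrays. The dim, untested Cybrd1 was lower in both combination arrays than under dexamethasone. For Reg1 and Slc40a1 the combination and dexamethasone arrays overlapped. Reg1, for example, had 96.1 and 72.5 in the combination, 101 and 54.7 under dexamethasone and 95.5 under DBZ. Of the ileal markers, Fabp6, Slc10a2 and Pyy were lower in both combination arrays than under either drug. Tmigd1, Slc5a8 and Fgf15 overlapped with dexamethasone. The part of these markers in the Max result was not tested. In whole tissue, fewer cells of a type and less RNA per cell cannot be told apart. The 5 tested probe sets whose pattern over the 7 arrays was most like Max, by Pearson's r, were those of Cyp2c23 (0.994), Larp1b (0.983), Acvr2a (0.982), Sec24d (0.981) and Rbbp6 (0.980). Cyp2c23 is a cytochrome P450 and Sec24d a subunit of the vesicle coat that leaves the endoplasmic reticulum. Cyp2c23 had a signal of 151 and 185 in vehicle, 67.2 and 89.8 under dexamethasone, 80.5 under DBZ and 138 and 118 in the combination. A total of 159 probe sets had an r above 0.9 with Max, and the points share the split between vehicle and treated arrays.

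**Figure D2:**
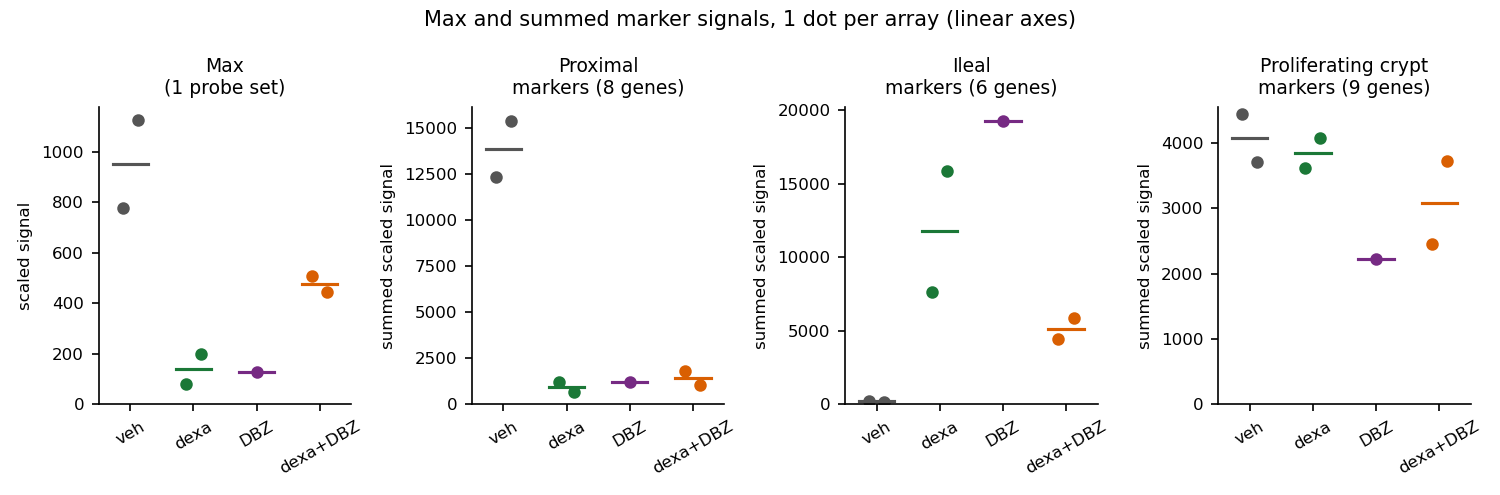
Scaled signal of Max and summed scaled signals of marker lists, 1 dot per array on linear axes, by group, with a bar at each group's mean. The proximal sum is 12368 and 15417 in vehicle and 1794 or less in each treated array, whereas Max in the combination (447 and 509) stands above the single-drug arrays, and the ileal sum in the combination (4412 and 5842) stands below them.

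Myc, the activating partner, was measured by 1 probe set, 1424942_a_at, whose name ending marks probes shared by several transcripts of a gene. Its signal was 140 and 65.4 in vehicle, 77.0 and 97.2 under dexamethasone, 41.1 under DBZ and 49.7 and 77.1 in the combination. The DBZ array was the lowest of the 7, while the vehicle, dexamethasone and combination arrays overlapped. The group means were 103 ± 52.9 in vehicle, 87.1 ± 14.3 under dexamethasone and 63.4 ± 19.4 in the combination (SD, n = 2 each), so neighbours in this order were not separated beyond their spread. Differences from vehicle were −0.14 ± 0.35 under dexamethasone, −1.03 ± 0.43 under DBZ and −0.55 ± 0.35 in the combination. Vehicle replicate 1 carries much of these: without it the dexamethasone difference was 0.35.

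Among treated groups Myc passed no test. DBZ minus dexamethasone was −0.89 ± 0.43 (95% interval −1.85 to 0.07, adjusted p = 0.366). Combination minus DBZ was 0.48 ± 0.43 (−0.48 to 1.44, adjusted p = 0.719) and combination minus dexamethasone −0.41 ± 0.35 (−1.20 to 0.38, adjusted p = 0.763). Each interval holds both 0 and a change of more than 2-fold. Beside these values, the summed signal of 9 proliferating crypt markers was 4438 and 3702 in vehicle, 3608 and 4072 under dexamethasone, 2229 under DBZ and 2449 and 3717 in the combination. The sum too was lowest on the DBZ array, as were Top2a, Pcna and Mcm2 among its markers. Mki67, Ccna2, Cdk1, Mcm5 and Mcm6 were lowest in combination replicate 1, and Tyms in dexamethasone replicate 2. The part of these markers in the Myc values was not tested. The probe sets most like Myc were those of Tomm20 (r = 0.982), a mitochondrial import receptor, Psma4 (0.982), a proteasome subunit, Ncaph (0.979), a condensin subunit that compacts chromosomes in mitosis, Tmpo (0.978) and Arhgef2 (0.978). Of the tested probe sets, 176 had an r above 0.9 with Myc.

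Mxd1, the antagonist known from differentiating cells, was highest in the combination. Its signal (1422002_at) was 92.2 and 121 in vehicle, 149 and 174 under dexamethasone, 65.6 under DBZ and 229 and 237 in the combination. The 4 groups did not overlap, in the order DBZ, vehicle, dexamethasone, combination. The share of all tested probe sets with all 4 groups apart was not counted, and nothing is read from this separation. Differences from vehicle were 0.55 ± 0.22 under dexamethasone, −0.60 ± 0.27 under DBZ and 1.05 ± 0.22 in the combination. Mxd1 was the only member probe set called higher in the combination against vehicle, where 4.38% of all were, and this too is a description from which nothing is read. The call was lost with the first vehicle array left out (0.88) and with either combination array left out (1.08 and 1.03).

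Mxd1 rose when dexamethasone was added to DBZ. Combination minus DBZ was 1.66 ± 0.27 (95% interval 1.06 to 2.25, adjusted p = 0.0473), a 3.15-fold higher level in both combination arrays than on the DBZ array. It was the only member probe set of 10 called in that comparison, against a background of 0.330% (0.301% higher), and 0.506% of probe sets differed as much. The call rests on 1 DBZ array and sat at the threshold: it held in 1 of 14 alternatives, where the difference ran from 1.20 to 1.81 and the adjusted p from 0.0432 to 0.252. Without vehicle replicate 1, for instance, 0 member probe sets were called. DBZ minus dexamethasone was −1.15 ± 0.27 (−1.75 to −0.56, adjusted p = 0.106), and combination minus dexamethasone was 0.50 ± 0.22 (0.01 to 0.99, adjusted p = 0.521). Neither passed the test, although the groups did not overlap. The Mxd1 interaction was 1.10 ± 0.35.

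Mxd3, the family member known from S phase, had 1 tested probe set of 3. On 1438847_at the signal was 79.6 and 69.3 in vehicle, 30.4 and 39.5 under dexamethasone, 80.8 under DBZ and 49.7 and 17.5 in the combination. The groups given dexamethasone, alone or in the combination, lay below vehicle and DBZ with no overlap. Differences from vehicle were −0.88 ± 0.37, 0.10 ± 0.46 and −1.01 ± 0.37 for dexamethasone, DBZ and the combination. Combination minus DBZ was −1.11 ± 0.46 (−2.13 to −0.10, adjusted p = 0.362) and DBZ minus dexamethasone 0.98 ± 0.46 (−0.03 to 2.00, adjusted p = 0.342), and neither passed. Without combination replicate 2, at 17.5, combination minus DBZ was −0.59, and without replicate 1 it was −1.64. The other probe sets, 1448878_at and 1422970_at, were dim, the latter with a mean signal of 11.1, below the pseudocount, and were not tested.

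Mxd4, known like Mxd1 from differentiated cells, was measured by 4 probe sets that did not all run one way. On 1434378_a_at the signal was 129 and 137 in vehicle, 240 and 157 under dexamethasone, 272 under DBZ and 205 and 167 in the combination. On 1434379_at it was 63.9 and 33.9, 127 and 81.1, 78.1, and 104 and 99.8 in the same order. Every treated array was above both vehicle arrays on these probe sets, and differences from vehicle ran from 0.45 to 0.97. The third tested probe set, 1422575_at, had 56.3 and 39.1 in vehicle, 52.3 and 33.7 under dexamethasone, 28.6 under DBZ and 43.3 and 55.8 in the combination, with the vehicle, dexamethasone and combination arrays overlapping. The untested 1422574_at had 5.99 and 13.3 in vehicle, near the pseudocount, and 28.9 to 37.4 in the treated arrays. So 3 of the 4 probe sets were higher in every treated array than in vehicle. Of all tested probe sets, 29.5%, 35.5% and 25.0% were higher than vehicle without overlap for dexamethasone, DBZ and the combination. The share higher in all 3 was not counted, and nothing is read from the 3 of 4. Among treated groups no Mxd4 probe set passed the test: on 1434378_a_at, DBZ minus dexamethasone was 0.46 ± 0.29 (adjusted p = 0.490), combination minus DBZ −0.52 ± 0.29 (adjusted p = 0.502) and combination minus dexamethasone −0.07 ± 0.24 (adjusted p = 0.952).

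Mxi1, also called Mxd2, varied least among the 7 genes on its brighter probe set. That probe set, 1450376_at, had 1206 and 1313 in vehicle, 1337 and 1478 under dexamethasone, 1202 under DBZ and 1268 and 1338 in the combination. The vehicle and combination arrays overlapped, and the differences from vehicle were 0.16 ± 0.16, −0.07 ± 0.19 and 0.05 ± 0.16 for dexamethasone, DBZ and the combination. In the treated comparisons its intervals were the narrowest of the members: combination minus dexamethasone was −0.11 (−0.46 to 0.25, adjusted p = 0.868) and DBZ minus dexamethasone −0.22 (−0.66 to 0.21, adjusted p = 0.627). The dimmer 1425732_a_at had 193 and 197 in vehicle, 203 and 313 under dexamethasone, 132 under DBZ and 242 and 234 in the combination. On it the DBZ array was below the other 6. Combination minus DBZ was 0.80 ± 0.28 (0.18 to 1.41, adjusted p = 0.281) and DBZ minus dexamethasone −0.88 ± 0.28 (−1.49 to −0.26, adjusted p = 0.190), so the probe sets differ in size and neither passed.

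Mnt, a broadly expressed antagonist that pairs with Max in resting and cycling cells alike, had 191 and 153 in vehicle, 207 and 201 under dexamethasone, 274 under DBZ and 280 and 177 in the combination on 1418192_at. The combination arrays spanned the dexamethasone and DBZ values and overlapped vehicle. Differences from vehicle were 0.24 ± 0.24, 0.64 ± 0.29 and 0.36 ± 0.24 for dexamethasone, DBZ and the combination. The treated comparisons ran from −0.29 ± 0.29 for combination minus DBZ (adjusted p = 0.763) to 0.40 ± 0.29 for DBZ minus dexamethasone (adjusted p = 0.549), and none passed. The other Mnt probe set, 1418193_at, had a mean signal of 5.52 and was not tested.

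**Figure D3:**
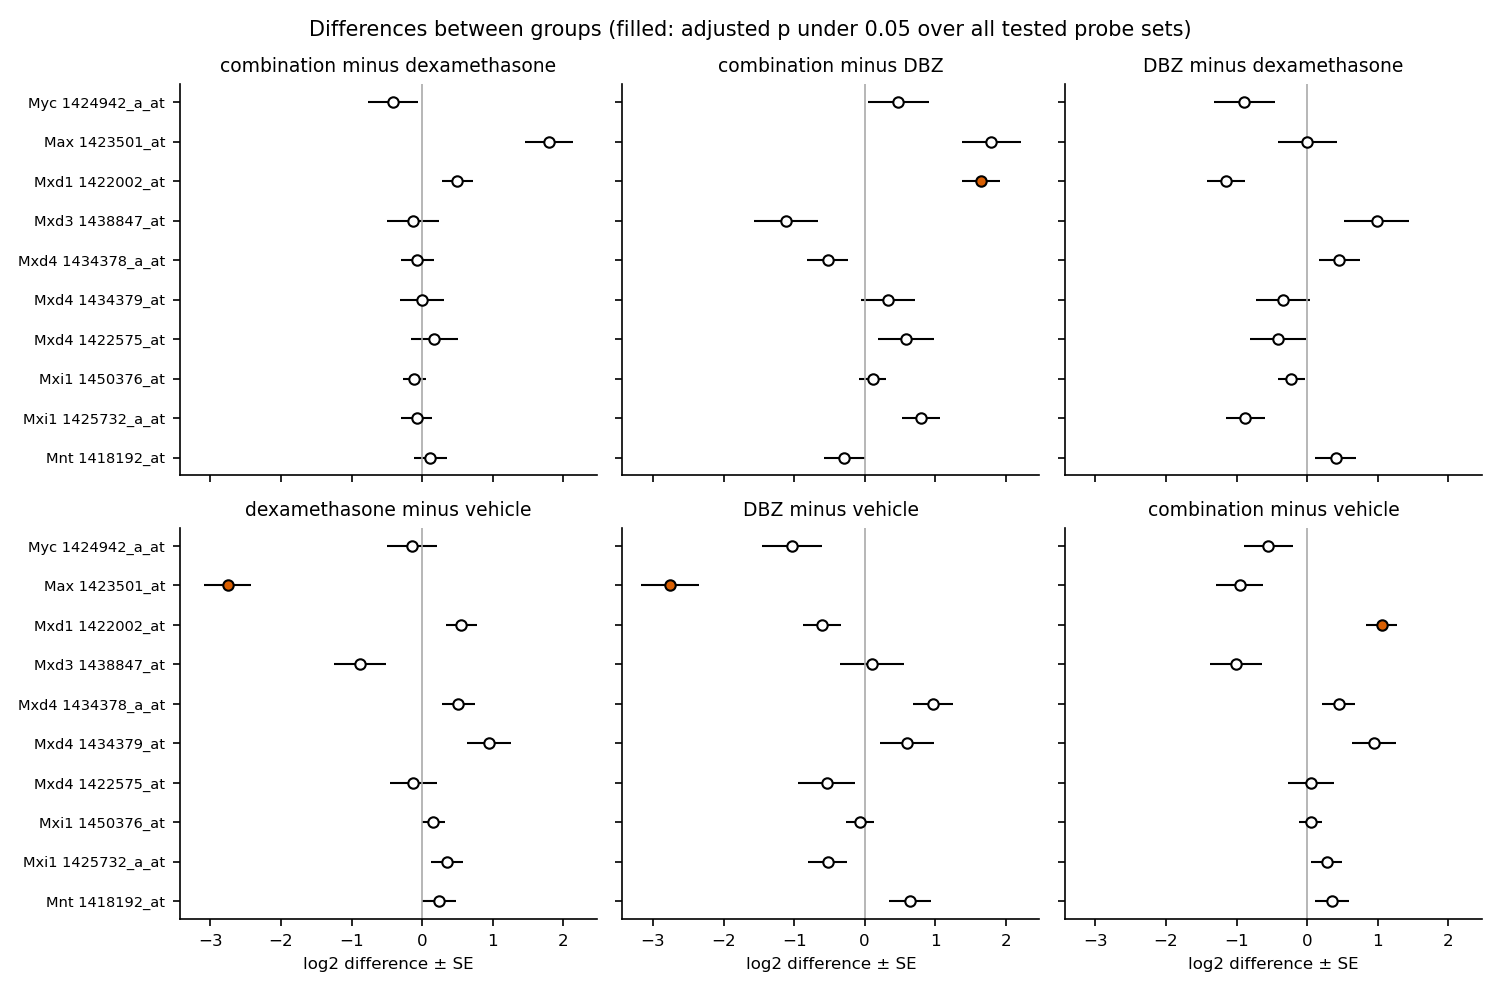
Log2 difference (log2 of signal + 12.3) with its standard error for the 10 tested member probe sets in 6 comparisons of groups, with filled points where the adjusted p over all tested probe sets was under 0.05. Max lies near −2.76 and −2.75 for the single drugs against vehicle and at 1.80 for the combination against either drug. Mxd1, at 1.66 in combination minus DBZ, is the 1 filled point in the comparisons among treated groups. The spread used in the fit includes the vehicle arrays.

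Counted over the 10 tested probe sets, 0 passed in combination minus dexamethasone, where 4 probe sets of 13638 (0.0293%) did, and 0 passed in DBZ minus dexamethasone, where 46 (0.337%) did. At an unadjusted p under 0.05, limma gave 2 member probe sets of 10 in each, against 9.36% and 15.2% of all tested probe sets. In combination minus DBZ it gave 4 of 10, against 12.3%. Nothing is read from these counts, since the comparisons are not independent of the choice of members. Groups did not overlap for 2 of the 10 in combination minus dexamethasone, both higher, against 43.7% of all tested probe sets. In combination minus DBZ 9 of 10 did not overlap, against 74.6%, and in DBZ minus dexamethasone 9 of 10, against 77.6%, comparisons in which a lone array stands against a pair. With 2 arrays a side, an exact permutation test cannot reach the threshold for a single gene.

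The wider network was taken from fixed lists of genes, each gene by its brightest probe set, and set beside all 8094 genes tested. Of all genes, 0.0247% were called higher and 0.0124% lower in combination minus dexamethasone. The shares were 0.0741% and 0.0371% in combination minus DBZ and 0.0741% and 0.111% in DBZ minus dexamethasone. A list with 0 calls is close to those shares. Of 9 tested further family members, among them Mycl, Mlx and Mlxipl, 0 passed in any of the 3 treated comparisons. In that list Mycl, a Myc paralogue, had 85.3 and 50.3 in vehicle, 43.9 and 53.3 under dexamethasone, 54.8 under DBZ and 32.2 and 6.37 in the combination, and combination minus dexamethasone was −1.07 ± 0.43 (adjusted p = 0.484). Combination minus DBZ was −1.22 ± 0.53 for Mycl (adjusted p = 0.392). Combination replicate 2, at a signal below the pseudocount, carries both: without it they were −0.45 and −0.59. Both combination arrays were thus the lowest of the 7. The partner of the Mlx branch, Mlx, stayed between 488 and 702.

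The co-repressor list, with Sin3 and histone deacetylase genes and also Zbtb17 among its members, had 10 tested genes, and 0 passed among treated groups. The histone deacetylase Hdac1 had 715 and 604 under dexamethasone, 473 under DBZ and 487 and 500 in the combination, with 544 and 541 in vehicle. DBZ minus dexamethasone was −0.47 ± 0.20 for it (adjusted p = 0.320). Hdac2 was −0.42 ± 0.26 in the same comparison (adjusted p = 0.477). Sin3a, the scaffold that Mxd proteins bind, was called in 1 comparison with vehicle, 0.78 ± 0.21 under dexamethasone, and is named after its value was seen. It was 1 of the 10 (10%) called higher there, against 6.93% of all genes.

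Myc's co-activators were lower in 10 of 10 genes in combination minus dexamethasone, with a median of −0.33, while 59.9% of all genes were lower and the median of all was −0.07. None of the 10 passed, and 2 (20%) had an unadjusted p under 0.05, against 10.2% of all genes. The median moved to −0.16 without combination replicate 1 (9 of 10 lower) and to −0.21 without dexamethasone replicate 1 (7 of 10 lower). Ep400, the ATPase of a histone acetyltransferase complex, had 331 and 312 under dexamethasone, 217 and 192 in the combination, 266 under DBZ and 179 and 243 in vehicle, a combination minus dexamethasone of −0.63 ± 0.20 (adjusted p = 0.398). The helicase Ruvbl2 was −0.43 ± 0.22 (adjusted p = 0.592) and the chromatin remodelling subunit Smarcb1 −0.59 ± 0.22 (adjusted p = 0.458).

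Genes of Myc's own synthesis and turnover, 20 tested, showed 0 calls among treated groups. Plk1, a mitotic kinase that stabilises Myc proteins, had 156 and 91.8 in vehicle, 91.1 and 115 under dexamethasone, 25.2 under DBZ and 45.9 and 75.5 in the combination. DBZ minus dexamethasone was −1.61 ± 0.39 for Plk1 (adjusted p = 0.118), and the DBZ array was again the lowest of the 7. Plk1 is itself a gene of dividing cells. The proliferating crypt sum given above was also lowest there, though not each of its markers, and its part in the Plk1 values was not tested. Huwe1, a ubiquitin ligase that acts on Myc, was −0.62 ± 0.21 in this comparison (adjusted p = 0.222). The kinase Aurka was −0.62 ± 0.31 (adjusted p = 0.379).

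Genes known to be activated by Myc were tested in 55 of 64 listed. DBZ minus dexamethasone was below 0 in 48 and above 0 in 7, with a median of −0.50, against a median of −0.03 over all genes and 53.2% of them lower. No gene of the list passed, and 17 (30.9%) had an unadjusted p under 0.05, against 13.3% of all genes. The comparison rests on the 1 DBZ array, whose 3'/5' ratios were the highest of the 7 (1.80 and 2.17) and whose proliferating crypt sum was the lowest (2229, against 3608 and 4072 under dexamethasone), and their part was not tested. The 4 named by the smallest p were lowest on the DBZ array. Nop56, a nucleolar protein of ribosome assembly, had 274 and 200 in vehicle, 278 and 208 under dexamethasone, 102 under DBZ and 142 and 182 in the combination, and DBZ minus dexamethasone was −1.14 ± 0.29 (adjusted p = 0.128). The nucleolar GTPase Gnl3 was −0.94 ± 0.25 (adjusted p = 0.133). Shmt1, an enzyme of one-carbon metabolism, was −1.78 ± 0.49 (adjusted p = 0.140). For Hspd1, the mitochondrial chaperonin, the signal was 1691 and 1857 under dexamethasone and 905 under DBZ, a difference of −0.96 ± 0.27 (adjusted p = 0.144).

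In combination minus dexamethasone the same list was lower in 50 of 55 genes with a median of −0.31, against a median of −0.07 over all genes. One combination array decides it: without combination replicate 1 the median was −0.04 with 25 genes higher and 30 lower, and without replicate 2 it was −0.47. In combination minus DBZ 39 were higher and 16 lower with a median of 0.19, against −0.03 over all genes. This too moved with the array left out, to 0.04 without replicate 2 and 0.44 without replicate 1. The proliferating crypt sum, 2449 in combination replicate 1 and 3717 in replicate 2, parted these arrays as well, and its part was not tested. Against vehicle, 5 of the 55 genes (9.09%) were called lower under DBZ, against 3.88% of all genes, a description like every comparison with vehicle: Nop56, Gnl3, Hspd1, its co-chaperonin Hspe1 (−1.20 ± 0.30) and the transferrin receptor Tfrc (−1.31 ± 0.32). The cyclin Ccnd2 was called higher under dexamethasone (1.21 ± 0.24) and in the combination (0.97 ± 0.24). It was the 1 of 55 called higher in each (1.82%), where 6.93% and 3.83% of all genes were. These last names were chosen after their values were seen.

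Of 12 genes known to be repressed by Myc, all were tested. Clu, the secreted chaperone clusterin, had 221 and 312 in vehicle, 318 and 268 under dexamethasone, 826 under DBZ and 270 and 285 in the combination. It was high on the DBZ array alone. Clu fell in combination minus DBZ, by 1.53 ± 0.25 on the log2 scale (adjusted p = 0.0473), the 1 call of the list among treated groups, and DBZ minus dexamethasone was 1.46 ± 0.25 (adjusted p = 0.0525). Of all genes, 0.0371% were called lower in combination minus DBZ. The Clu call was lost in 10 of 14 alternatives, whose differences ran from −1.57 to −1.38. In DBZ minus dexamethasone 6 of the 12 were higher and 6 lower, with a median of 0.04. Ndrg1, a gene of differentiated epithelium, was −0.88 ± 0.25 in combination minus DBZ (adjusted p = 0.187). Described against vehicle, 3 of the 12 were called higher under dexamethasone, 4 under DBZ and 3 in the combination, where 6.93%, 3.93% and 3.83% of all genes were. Gas1 (1.68 ± 0.27, 1.65 ± 0.33 and 1.46 ± 0.27) and the receptor Tgfbr2 (1.32 ± 0.21, 1.12 ± 0.25 and 0.997 ± 0.207) were called in all 3 and are named after their values were seen. Gas1 and Tgfbr2 are known from mesenchymal cells, and the 7 smooth muscle markers summed to 9156 and 6627 in vehicle and 13998 to 22266 in the treated arrays, whose part was not tested.

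**Figure D4:**
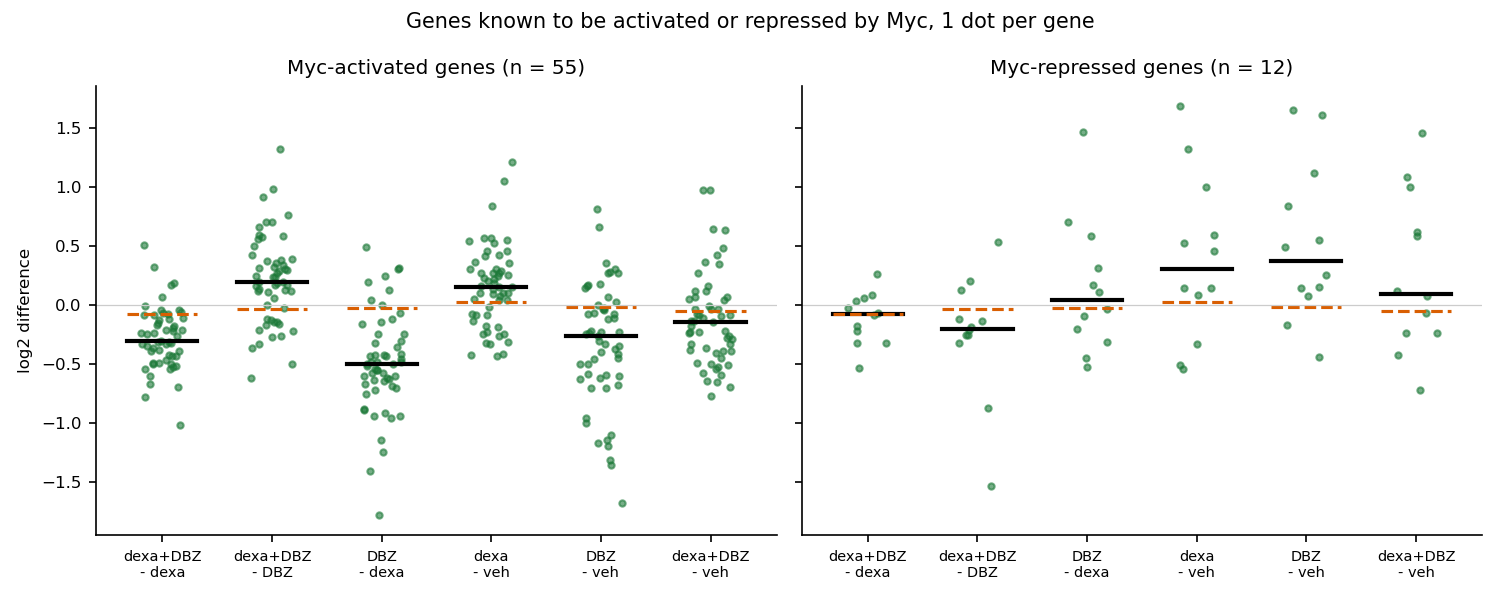
Log2 difference (log2 of signal + 12.3) for each tested gene of the Myc-activated list (n = 55) and the Myc-repressed list (n = 12) in 6 comparisons, 1 dot per gene, with the list median as a solid bar and the median of all tested genes as a dashed bar. The activated genes lie mostly below 0 in DBZ minus dexamethasone (median −0.50, 48 of 55 lower) while the repressed genes are split there (median 0.04, 6 of 12 lower).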

How the data were processed

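Total RNA from small intestine of 8 samples in 4 groups was hybridised to Affymetrix arrays as biotin-labelled cRNA. The deposited intensity values are MAS5 signals per probe set, per the submitters' processing notes, with no version stated. The authors' table held 8 columns, and 0 were left unused. It held no detection calls. Vehicle arrays were deposited at a trimmed mean of 500.2 and the others at 250.1, so each array was scaled to 250, leaving out 2% of values at either end for the mean. The analysis used log2(signal + 12.3), where the pseudocount is the pooled 20th percentile. After 64 control probe sets and those under the filter level were left out, 13638 remained. A single gene symbol was given for 20393 probe sets, several for 691 and no symbol for 1606; the gene number of 20364 matched and 0 symbols were updated.

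Group means were fitted with limma 3.58.1 in R 4.3.3 (intensity trend, 2-sided p, Benjamini-Hochberg over all tested probe sets, threshold 0.05), with 3 residual degrees of freedom, because the planned second DBZ array was not distinct. On data simulated from these arrays, a log2 change of 2 was recovered in 77.5% of 200 changed probe sets for combination minus dexamethasone, 64.5% for combination minus DBZ and 59.5% for DBZ minus dexamethasone, and a change of 1 in 0%. The simulation took each probe set's spread on these arrays as its true spread and changed 200 probe sets in 1 group, with all other groups equal. The data differ from that setting: differences under 1 were called against vehicle, such as 0.97 for Ccnd2 in the combination. The recovered shares therefore describe the simulation and are not the power in these data. The number of arrays limits the precision.

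The members and gene lists were chosen with earlier results of these data known. Named list genes are the up to 4 per list with the smallest p in the treated comparisons, and others are marked as named after their values were seen. A gene of several probe sets is counted by the brightest. Alternatives were the scaling, quantile normalization, pseudocounts of 64 and 1, no filter, no trend, a replicate block, each array left out, and no vehicle arrays. The list medians and the named list genes were put through these alternatives after the data were seen.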

Additional observations from a re-analysis of the deposited data

Results flagged for a closer look

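For Max the DBZ difference with dexamethasone minus that without it was 4.56 on the log2 scale, a description with no test, since the vehicle arrays that enter it are those whose differences chose the members. Max is listed here because this value was among those past the threshold over all probe sets and because the direction turned. In every array the DBZ difference was below 0 without dexamethasone and above 0 with it. The dexamethasone difference was likewise below 0 without DBZ and above 0 with it, which is the same 4.56.

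For Mxd1 the DBZ difference was below 0 without dexamethasone and above 0 with it in every array. The difference between these was 1.10 and was not among those past the threshold.

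On Mxd4 1434378_a_at the dexamethasone difference was above 0 without DBZ and below 0 with it in every array, a difference of −1.04 that was not past the threshold either. The other tested Mxd4 probe sets did not show it. Each of these contrasts rests on 1 DBZ array and on the vehicle arrays. The share of all tested probe sets with a turn in every array was not counted, so nothing is read from the turns. Groups did not overlap for 79.1% of all tested probe sets in DBZ minus vehicle and 43.7% in combination minus dexamethasone. The shares were 56.2% in dexamethasone minus vehicle and 74.6% in combination minus DBZ.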

How the results depend on the processing

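Depth of replication limits these results: with 7 arrays and 1 of them the whole DBZ group, calls near the threshold move with small changes. Signals near the pseudocount, as for Mxd3 and Mxd4 1422575_at, rest on it, and the table gives no detection calls. The 10 member probe sets gave 940 values over 70 results and 14 alternatives. Of these 827 kept their direction and side of the threshold (treated comparisons) or moved by less than the spread (comparisons with vehicle and the interaction). A further 82 of the latter kind moved by more. Among treated comparisons 3 passed and 13 missed the threshold anew, and 15 reversed. Changes of sign in uncalled comparisons with vehicle or interactions are not among the 15. Calls gained or lost there are not counted either, such as Mxd1 in the combination against vehicle, called in 9 of 13 alternatives. The causes were not tested.

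With intensities as deposited, where the vehicle arrays stand at the higher scale, the median of all probe sets shifted by −0.95 in the dexamethasone comparison with vehicle, and 5, 3 and 5 member probe sets changed sign for dexamethasone, DBZ and the combination. Called members were then 7, 6 and 6 for these comparisons, 5 for the interaction and 0 for combination minus DBZ, and called probe sets overall 10175, 9356, 10839 and 6497, with 0 for combination minus dexamethasone, 10 for combination minus DBZ and 8 for DBZ minus dexamethasone. With no filter on mean signal, probe sets called numbered 1082, 538 and 623 for dexamethasone, DBZ and the combination against vehicle, 233 for the interaction, 0 for combination minus dexamethasone, 5 for combination minus DBZ and 1 for DBZ minus dexamethasone. With no intensity trend they numbered 678 for DBZ and 653 for the combination against vehicle, 206 for the interaction, and 0, 0 and 1 for the 3 treated comparisons. Quantile normalization gave 0, 6 and 5 for those, a pseudocount of 64 gave 5 for combination minus DBZ and 4 for DBZ minus dexamethasone, and a pseudocount of 1 gave 0 for combination minus dexamethasone and 71 for DBZ minus dexamethasone. Without the vehicle arrays 17 were called in combination minus dexamethasone and 22 in combination minus DBZ. The member call in combination minus DBZ, that of Mxd1, became 0 with quantile normalization, a pseudocount of 64, no filter, no trend and no vehicle arrays.

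Replicate numbers did not pair the samples: the residuals of same-numbered arrays correlated at 0.049 for vehicle and dexamethasone, −0.12 for vehicle and the combination and 0.11 for dexamethasone and the combination. With the replicate block, called probe sets were 0 in combination minus dexamethasone, 1 in combination minus DBZ and 1 in DBZ minus dexamethasone, and called members 0 in combination minus DBZ.

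Leaving out 1 array at a time, called probe sets ran from 570 to 1332 for dexamethasone, 691 to 984 for DBZ and 160 to 938 for the combination against vehicle, 92 to 567 for the interaction, 0 to 104 for combination minus dexamethasone, 0 to 30 for combination minus DBZ and 1 to 90 for DBZ minus dexamethasone. Called members ran from 1 to 2 for dexamethasone and 0 to 2 for the combination against vehicle, and from 0 to 1 for combination minus dexamethasone and for combination minus DBZ.

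Most reversals in the treated comparisons were of values near 0. Max in DBZ minus dexamethasone was −0.020 with a pseudocount of 64 and ran from −0.58 to 0.59 with an array left out. In combination minus dexamethasone, quantile normalization gave 0.022 for Mxd4 1434378_a_at, 0.017 for Mxi1 1425732_a_at, 0.0071 for Clu and 0.091 for Zbtb17, and a pseudocount of 64 gave −0.0057 for Mxd4 1434379_at. With an array left out the ranges in that comparison were −0.66 to 0.40 for Mxd3, −0.35 to 0.22 for Mxd4 1434378_a_at, −0.29 to 0.29 for Mxd4 1434379_at, −0.069 to 0.42 for Mxd4 1422575_at, −0.37 to 0.22 for Mxi1 1425732_a_at, −0.20 to 0.43 for Mnt, −0.39 to 0.30 for Hspd1, −0.22 to 0.54 for Mitf, −0.19 to 0.050 for Clu, −0.46 to 0.11 for Ndrg1 and −0.45 to 0.39 for Zbtb17. In combination minus DBZ they were −0.60 to 0.029 for Mnt and −0.086 to 0.088 for Rbbp7, for which quantile normalization gave −0.0086.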
